A study of Mus musculus with 28 samples.

Results

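Promoter contacts were compared between 12h and 1h of C/EBPα induction in the mouse C10 line. A contact is an unordered pair of HindIII fragments of which at least one is a bait, the fragment that carries a promoter and was enriched by capture, and each pair was counted once even where the list gave it in both directions. The 1h list held 137836 contacts and the 12h list 131598, which together made 191291 different contacts of the 273644 found over the lists of all 4 times. The C10 cells are of Pre-B type and express C/EBPαER, a rat C/EBPα joined to the hormone-binding domain of the estrogen receptor. They turn into macrophages after induction, and all samples come from a single line. All groups carried this transgene and differed in the time since β-estradiol was added together with IL-3 and CSF-1, with 0h as the uninduced state and 1h, 12h and 48h as the induced ones. Each contact list came from 2 libraries that the authors had merged, so contacts have no replicate check, no test was run on them, and a difference between times cannot be told apart from variation between libraries. RNA was measured in 3 libraries at each time, which the study describes as biological replicates.

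Promoter capture Hi-C cross-links chromatin, cuts it with a restriction enzyme, joins ends that lie close in the nucleus and then pulls out the joined fragments that contain a promoter. A listed contact therefore marks a distal fragment that met a promoter more often than its distance alone would give. C/EBPα is a leucine zipper transcription factor of the myeloid lineage that works together with PU.1 and opposes the B cell factors PAX5 and EBF1, and in B cell precursors its activity stops the cell cycle and turns on macrophage genes. The labelled cell states were checked on RNA. The 4 Pre-B markers Vpreb1, Vpreb3, Igll1 and Cd79a summed to 164 to 175 TPM at 1h, a unit that gives a gene's length-corrected share of all transcripts, and to 39.9 to 51.7 TPM at 12h, while the 5 macrophage markers (Itgam, Fcgr1, Csf1r, Cd14 and Lyz2) went from 4.67 to 6.26 TPM at 1h to 226 to 324 TPM at 12h. Pre-B transcripts were thus still present at 12h, and in such bulk samples fewer cells of a type and less RNA per cell cannot be told apart. Summed markers of T cells, erythroid cells, fibroblasts and neutrophil granules stayed at or under 0.3 TPM in each of these 6 libraries.

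The promoter of Mmp12, which codes for macrophage elastase, gained many contacts in this interval, and its sequences are given first because they show what a contact joins. Its bait lies at chr9:7341455-7345182 in mm10 and ends at a HindIII site on both sides, shown here in capitals on the plus strand of GRCm38 with the genome around them.
Mmp12 bait, left end, chr9:7341435-7341480: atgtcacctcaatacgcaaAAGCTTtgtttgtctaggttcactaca
Mmp12 bait, right end, chr9:7345162-7345207: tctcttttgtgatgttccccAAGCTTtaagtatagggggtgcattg

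Upstream of the RefSeq start of Mmp12, the 250 bases at chr9:7344147-7344396 (plus strand) held 1 match to GAGGAAGT, a PU.1-like motif, at position 163 and 1 match to TTGCNNAA, a C/EBP-like motif, at position 212. Both matches are in capitals below, where they read in reverse complement, and positions count from the first base.
Mmp12 promoter: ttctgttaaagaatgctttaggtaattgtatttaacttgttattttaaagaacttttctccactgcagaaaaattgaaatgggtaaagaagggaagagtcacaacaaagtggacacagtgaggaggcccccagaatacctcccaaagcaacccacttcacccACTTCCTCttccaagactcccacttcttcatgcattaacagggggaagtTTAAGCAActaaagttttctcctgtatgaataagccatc

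Across all 32851 RefSeq promoters of the same length, 9.56% held the C/EBP-like and 2.44% the PU.1-like letters on either strand. Neither match was found in the promoters of Clasp2, Fggy, Fosl2, Klf7, Mmp1a, Peli1, Tlr2 and Dusp1, which also gained contacts. Among promoters at the baits with the largest losses, 1 of Dhrs3 held 1 C/EBP-like match and that of Tbce 1 PU.1-like match. The others read there held neither. The strongest contact that Mmp12 had only in the 12h list joined its bait to the fragment chr9:7336904-7339901, centred 4.92 kb away and free of annotated genes, with a value of 125. It held 3 C/EBP-like matches, one of which stands in capitals below. A second fragment, chr9:7542979-7545191, lay 201 kb from the bait, had a value of 15 at 12h and was also free of genes. It ranked 10 by value among the fragments without a bait that Mmp12 met only at 12h. It was picked for its matches, 2 PU.1-like and 1 C/EBP-like. The fragments ranked above it held no PU.1-like match, and most of those ranked below it held none.
Mmp12 near other end, chr9:7337206-7337305: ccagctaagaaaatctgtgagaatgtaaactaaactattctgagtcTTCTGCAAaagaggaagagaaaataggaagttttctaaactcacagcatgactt
Mmp12 distal other end, chr9:7543348-7543447: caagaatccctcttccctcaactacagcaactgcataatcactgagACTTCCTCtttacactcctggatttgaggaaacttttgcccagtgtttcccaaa

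A match to such letters describes the sequence and does not show that a factor was bound.

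Slightly over 4 in 10 of all contacts seen at either time were shared. Of the contacts at 1h, 78143 (56.7%, 95% exact binomial interval 56.43 to 56.95) were also listed at 12h, and these made up 59.4% (59.11 to 59.65) of the 12h list. A further 59693 contacts were listed only at 1h and 53455 only at 12h. Shared contacts were 40.9% of the union of both lists. This was close to the 40.7% for 0h with 1h and the 40.2% for 12h with 48h, so the step from 1h to 12h did not stand apart from its neighbours in this share. Intervals here and below cover counting error only.

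Contacts listed at both times were shorter and carried higher values than those listed once. The median distance between fragment centres was 158 kb for shared contacts, 228 kb for those only at 1h and 188 kb for those only at 12h. The list value, a whole number that the files do not name and that was taken as read pairs, had a median of 21 at 1h and 16 at 12h for shared contacts, against 13 for contacts only at 1h and 11 for those only at 12h. Shared contacts therefore held 70.4% of the 1h total of 3548327 and 67.3% of the 12h total of 2867339. Contacts between 2 baits made up 19.2% of shared contacts, 14.96% of those only at 1h and 14.62% of those only at 12h.

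On one chromosome the share of 1h contacts that was still listed at 12h was lower at longer distances. It was 69.1% under 50 kb and 62.1% between 100 and 200 kb. Beyond that it was 49.7% between 200 and 500 kb, 37.5% between 500 and 1000 kb and 23.2% above 1000 kb. Contacts beyond 1000 kb on one chromosome numbered 2320 at 1h and 1192 at 12h, which was 1.68% and 0.906% of the lists. Of those at 12h, 45.1% were in the 1h list. Contacts between chromosomes numbered 855 and 679, and 50.5% of those at 1h were listed again at 12h. Low values gave a similar order, since 25.2% of the 1h contacts with values under 10 were listed again and 84.2% of those with values of at least 100.

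**Figure D1:**
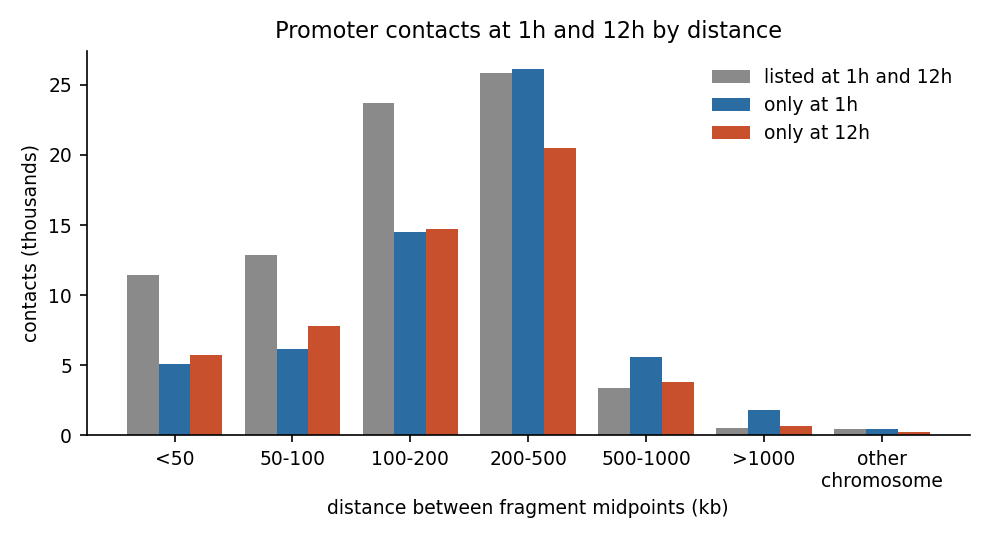
Numbers of contacts by distance between fragment centres, split into those in both lists, only in the 1h list and only in the 12h list. Contacts under 50 kb were mostly shared (69.1% of those at 1h), while above 1000 kb 23.2% of the 1h contacts were listed again.

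A contact that disappeared often had a listed neighbour at the other time. Of contacts only at 1h, 52.4% had a 12h contact of the same bait within 10 kb of the lost fragment and 71.6% had one within 25 kb. The shares were 55.1% and 73.4% for contacts only at 12h. A pair absent from a list has an unknown value rather than 0, since the lists hold only pairs past the score cut-off of the caller.

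Contacts that appeared at 12h were listed more often at 48h than at 0h, and those that disappeared more often at 0h than at 48h. Of contacts only at 12h, 39.9% (39.5 to 40.3) were in the 48h list and 27.7% (27.3 to 28.1) in the 0h list. Of contacts only at 1h, the order was turned, with 25.7% (25.3 to 26.0) at 48h and 35.1% (34.7 to 35.5) at 0h. Shared contacts were found in the 0h list in 75.5% of cases and in the 48h list in 73.9%. Of all 12h contacts 60.1% were in the 48h list and 56.1% in the 0h list, and of all 1h contacts 53.0% and 58.0%. In neither the 0h nor the 48h list were 54.0% of the contacts only at 1h and 49.6% of those only at 12h.

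The contacts with the highest values among those in 1 list were all short. At 12h the leading ones joined the start of the small RNA genes Gm24608 and Mir7669 to a fragment inside Ubap2l 3.02 kb away (value 453), Glyatl3 to Gm23078 (423), Prr5l to Commd9 (408), Ptprj to a fragment inside its own gene (400) and Tas2r131 to Tas2r129 (362). These 5 were all in the 48h list, and 1 of them, Glyatl3 with Gm23078, was in the 0h list. Only at 1h, the bait at the start of Ncl, which codes for the nucleolar protein nucleolin, was joined to the fragments on both of its sides with a value of 383 each, at 2.52 and 2.76 kb. Rfx5, a regulator of MHC class II genes, followed with 327, then Borcs7 with 301 and Hsp90b1, an endoplasmic reticulum chaperone, with 299. None of these 10 contacts spanned more than 5.56 kb.

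Where a contact was in both lists its value changed little after each value was divided by its list total. The median log2 ratio of 12h to 1h was -0.09 over the 78143 shared contacts, with quartiles of -0.33 and 0.14 and an SD of 0.37. At least 2 times higher were 198 contacts (0.253%), and at least 2 times lower were 705 (0.902%). The count of lower over higher contacts depended on the scaling, since centring the ratios on their median gave 362 higher and 353 lower.

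The contact with the largest relative increase, among those with at least 30 read pairs over both lists, joined Rimkla at chr4:119490833-119501518 to a fragment inside Cap1 3364 kb away. It had 11 read pairs at 1h and 34 at 12h, or 42.1 after scaling, a log2 ratio of 1.94 (95% exact interval 0.92 to 3.06). The bait shared by Xrcc4, a factor of DNA end joining, and Tmem167 was joined to a fragment inside the proteoglycan gene Vcan with 14 and 33 read pairs (log2 ratio 1.54, 0.60 to 2.56). Rfc3, a subunit of the clamp loader of DNA replication, had 20 and 43 read pairs with a fragment inside Gm42906 (1.41, 0.62 to 2.26). Slc7a7 (11 and 23) and Acox2 with Rpp14 (12 and 25) followed with log2 ratios of 1.37 each. All of these were still listed at 48h.

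The largest relative decreases were of the same size. Usp21, a deubiquitinase, and a fragment inside Cfap126 had 43 read pairs at 1h and 10 at 12h (log2 ratio -1.80, -2.96 to -0.78). The bait of the cytokine gene Il6, shared with A230098N10Rik, had 34 and 8 with a fragment inside Dnajb6 (-1.78, -3.10 to -0.64), and 29 at 48h. Otulin, a deubiquitinase of linear chains, had 42 and 11 with a fragment inside Trio (-1.63, -2.73 to -0.64). Gm23144 with Sbf1 had 26 and 6, and Etv5 with the translation factor gene Eif4a2 had 27 and 7. These intervals leave out a ratio of 1 but do not count the choice of the extremes among 50686 contacts.

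Contact numbers were then compared promoter by promoter. Of the 10149 baits with at least 5 contacts in 1 of the lists, 1030 (10.1%) had at least doubled at 12h and 696 (6.86%) had at least halved, after scaling to the number of contacts in each list and adding 1. Without the scaling 1014 had doubled and 957 had halved. The median log2 ratio over all of them was 0.06. The median gaining bait had 4, 3, 9 and 8 contacts at 0h, 1h, 12h and 48h, and the median losing bait 8, 10, 3 and 4. At 48h, 875 of the 1030 gaining baits had more contacts than at 1h, and 628 of the 696 losing baits had fewer. Over all 10149 baits, 4354 had more and 5167 had fewer. The 1h number also set the classes, so this comparison cannot show that a gain or loss lasted. Baits that gained contacts also tended to have higher values in the contacts they kept, with a Spearman correlation of 0.24 across 7964 baits that share the same libraries, given as a description.

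Gaining and losing baits differed in where they lay. The median gaining bait had 15 coding genes within 500 kb, the median losing bait 23 and the median of all eligible baits 18. On chromosome 16, 13.8% of baits gained and 3.38% lost contacts, and on chromosome 19 the shares were 14.2% and 5.67%. Chromosomes 8 and X had the reverse order, with 5.65% gaining and 11.5% losing on chromosome 8 and 7.66% and 13.7% on the X. Another bait of the same class was found within 500 kb of 64.5% of the gaining and 66.2% of the losing baits. The median number of eligible baits in that range was 8 for gaining and 14 for losing baits, and of all eligible baits 10.1% gained and 6.86% lost. The shares that these numbers alone would give were not worked out, so no clustering is read from them.

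**Figure D2:**
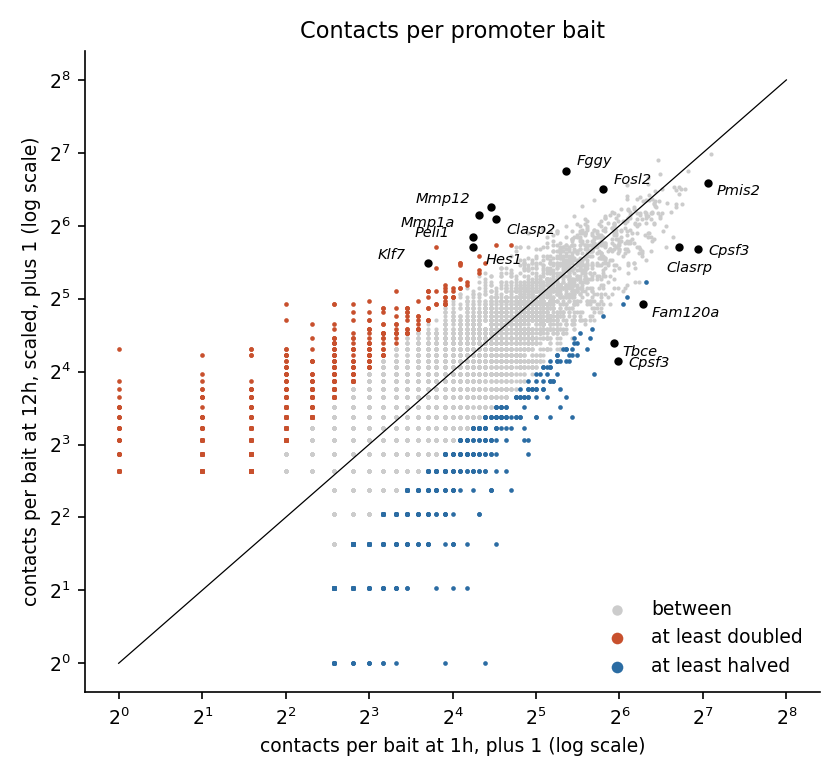
Contacts per bait at 12h against 1h on log2 axes, after scaling and adding 1, with the baits of the named genes labelled. Mmp12 (21 to 72) and Mmp1a (19 to 67) stand far above the diagonal, and the Cpsf3 baits (122 to 48 and 62 to 16) below it.

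Mmp12 kept all 21 of its 1h contacts and added 51 at 12h. Its bait had 14, 21, 72 and 63 contacts at 0h, 1h, 12h and 48h, and its summed value was 320 at 1h and 962 at 12h. Contacts upstream of the bait went from 4 to 24 and those downstream from 17 to 48, and those within 100 kb from 2 to 16. The farthest downstream contact lay 252 kb away at 1h and 531 kb away at 12h. Of the 51 added contacts, 27 were listed at 48h and 6 at 0h. Its RNA was at 0.07, 0.15 and 0.10 TPM in the 1h libraries and at 2.72, 2.62 and 2.83 TPM in the 12h libraries, so the groups did not overlap. The log2 fold change was 3.79 ± 0.21 (SE, n = 3 per time, limma adjusted p = 7.28e-07).

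**Figure D3:**
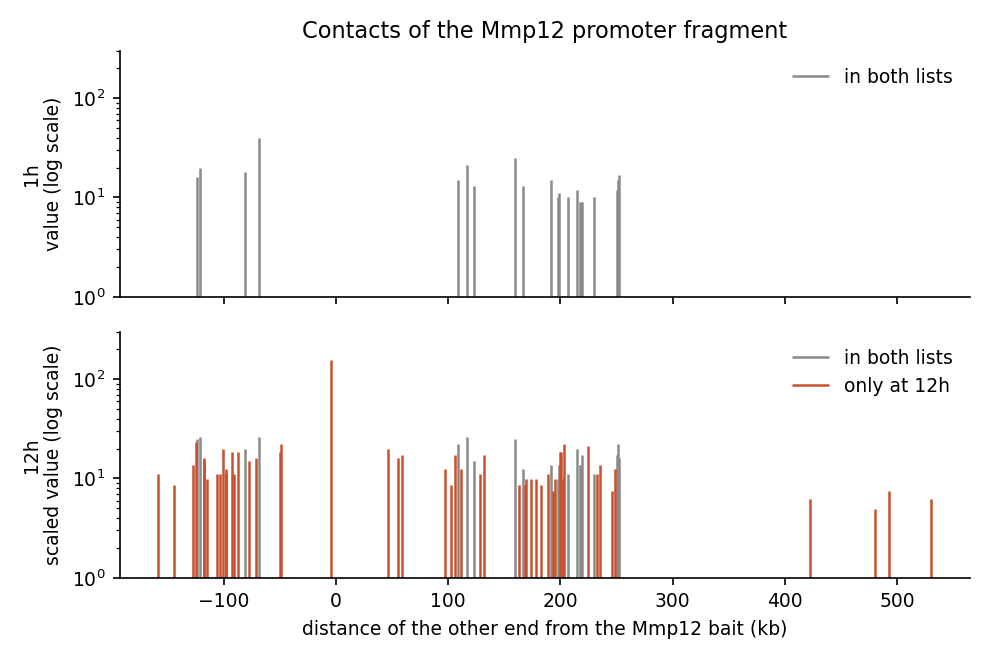
Contacts of the Mmp12 bait by distance from its centre (kb), with the list value at 1h and the scaled value at 12h on log axes. Grey lines are the 21 contacts in both lists and red lines the 51 found only at 12h, which lie on both sides of the bait. The highest of these has a list value of 125, or 155 after scaling.

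The gain was not shared evenly by the matrix metalloproteinase genes beside Mmp12, secreted proteases that lie in a row on chromosome 9. Mmp1a, an interstitial collagenase gene whose bait lies 116 kb away, had 9, 19, 67 and 69 contacts at 0h, 1h, 12h and 48h, while its RNA was too low to test. Mmp8, the neutrophil collagenase gene, went from 35 to 57 and Mmp1b from 4 to 9. Between and beside them, Mmp10 had 54 and 55 contacts, Mmp27 58 and 67, Mmp13 56 and 65, and Mmp7 6 and 7. The baits of this row lie within each other's reach, and 11 of the Mmp12 contacts at 12h were with another bait.

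Other baits with large gains carried genes of several kinds. Fggy, which codes for a carbohydrate kinase-like protein, had the largest gain in number, from 40 contacts at 1h to 102 at 12h, with 37 at 0h and 98 at 48h. Clasp2, coding for a microtubule plus-end protein, went from 22 to 64, and the bait of Gm25059 37.2 kb away from 13 to 49. On the other side of Clasp2 the bait of Pdcd6ip went from 3 to 16 and reached 62 at 48h, while Ubp1, 201 kb away, had 13 and 11. Peli1, a ubiquitin ligase gene of Toll-like receptor signalling, went from 18 to 54 and Klf7, a Krüppel-like factor gene, from 12 to 42. The bait of Gm5176 had many contacts throughout, with 87 at 1h and 113 at 12h.

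RNA moved with contacts for only some of these promoters. Fosl2, which codes for an AP-1 subunit, had 55 contacts at 1h and 86 at 12h, and its RNA went from 0.90, 1.79 and 1.04 TPM to 6.38, 7.60 and 8.49 TPM. It rose by 2.55 ± 0.28 on the log2 scale (SE, n = 3, limma adjusted p = 9.37e-05). Hes1, a repressor downstream of Notch, went the other way. Its bait had 38, 18, 49 and 30 contacts at 0h, 1h, 12h and 48h, so the 1h list held fewer than the 0h list. Hes1 RNA was at 0.39, 0.80 and 0.54 TPM at 1h and at 0.06, 0.00 and 0.16 TPM at 12h. This was a log2 fold change of -2.03 ± 0.46 (limma adjusted p = 0.00856) that was lost with a pseudocount of 1. Fggy RNA was at 1.64, 0.94 and 1.01 TPM and then at 3.03, 1.63 and 3.23 TPM, with a limma adjusted p of 0.0704 that passed with median-of-ratios scaling, with a replicate block and without 12h replicate 2. Clasp2 (log2 fold change -0.12), Peli1 (0.04) and Klf7 (0.49) did not pass the test.

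Among the 10 baits with the largest decreases in contact number, 6 of which had at least halved, no gene set beside a bait passed the RNA test, where each bait took its tested gene with the highest mean TPM. The largest decrease was at a bait of Cpsf3, which codes for the endonuclease that cleaves pre-mRNA ends. This bait, shared with Itgb1bp1, had 27, 122, 48 and 6 contacts at 0h, 1h, 12h and 48h, and a second Cpsf3 bait, shared with Iah1, had 16, 62, 16 and 1. Neither had a contact at 12h that it lacked at 1h. Cpsf3 RNA was at 10.1, 7.27 and 7.83 TPM at 1h and at 7.65, 5.35 and 7.65 TPM at 12h, which overlapped. Dhrs3, a retinaldehyde reductase gene, had 93 contacts at 1h and 49 at 12h, Mtmr14 had 74 and 35, and Clasrp had 104 and 49. The bait of Pask and Ppp1r7 went from 99 to 54, that of Ceacam9 from 79 to 35 and that of Pmis2 from 133 to 91. The log2 fold changes of Clasrp (-0.77), Ppp1r7 (-0.82), Dhrs3 (0.33) and Mtmr14 (0.43) were not called, though Ppp1r7 passed without 1h replicate 3.

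Fam120a and Tbce lost contacts with each other's region. The bait of Fam120a, an RNA-binding protein gene, went from 77 contacts at 1h to 28 at 12h, and the median distance of its contacts from 34689 kb to 237 kb. Tbce, which codes for a tubulin folding factor and lies on the same chromosome 13, went from 60 to 19 contacts, with 94 at 0h and 13 at 48h. The 2-Mb block that starts at 14 Mb and the one that starts at 48 Mb of this chromosome, which hold these baits, shared 152, 158, 40 and 41 contacts at 0h, 1h, 12h and 48h. Fam120a RNA (log2 fold change -0.07) and Tbce RNA (-0.70) did not pass the test.

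RNA was then set beside contacts for every bait with a tested gene. Over the 16415 genes tested, 902 (5.49%) rose and 1745 (10.6%) fell from 1h to 12h at an adjusted p under 0.05 and a log2 change beyond 1, and the median log2 change was -0.29. With median-of-ratios scaling between libraries the median was -0.01 and the split turned to 1270 higher (7.74%) and 923 lower (5.62%), so the direction of small RNA changes depends on the scaling. Among the 6956 baits that had both measures, the median RNA change was -0.08 for the 586 gaining baits, -0.33 for the 494 losing baits and -0.29 for all. Of gaining baits, 64 (10.9%) had a gene that rose and 48 (8.19%) one that fell, against 7.56% and 13.1% over all these baits. Losing baits had 35 (7.09%) that rose and 66 (13.4%) that fell, close to the shares over all. The same held with median-of-ratios scaling, with 17.1% rising and 5.46% falling at gaining baits and 11.1% and 7.03% over all. Across baits the Spearman correlation of contact change with RNA change was 0.08, given as a description over points that share their libraries.

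The median RNA change was highest where the most contacts were gained. The 77 baits with a log2 contact ratio of at least 2 had a median RNA change of 0.26 and 14.3% with a gene that rose. The 44 baits with a ratio of at most -2 had a median of -0.31. This was no lower than the -0.32 of the 3931 baits with a ratio between -0.5 and 0.5. Seen from the RNA, 12.2% of the 526 baits whose gene rose had gained contacts and 6.65% had lost them. Of the 913 baits whose gene fell, 5.26% had gained and 7.23% had lost contacts. Most promoters whose RNA passed the test in either direction were thus in neither contact class.

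**Figure D4:**
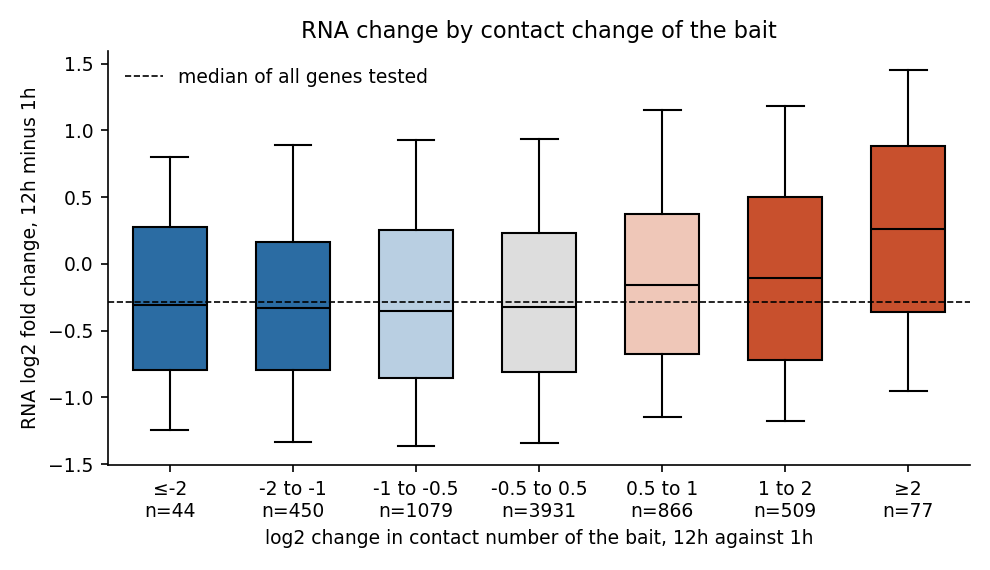
RNA change (log2, 12h against 1h) of the gene at each bait, by class of contact change, with boxes from the lower to the upper quartile, whiskers from the 10th to the 90th percentile and a dashed line at the median of all genes tested. The median lies at 0.26 for baits that gained most, between -0.36 and -0.31 for the bins that lost contacts and at -0.32 for the middle bin.

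Genes were then named from baits whose gene had a mean of at least 1 TPM over the 6 libraries and no overlap between times, which 53 of the 64 baits with doubled contacts and higher RNA passed. Thbs1, coding for the matrix protein thrombospondin, went from 19 to 38 contacts and from 0.05, 0.02 and 0.02 TPM to 3.91, 3.81 and 5.13 TPM, a log2 change of 5.07 ± 0.22 (SE, n = 3, limma adjusted p = 3.05e-07). Its 1h RNA levels were close to 0, so the size of this change depends on the pseudocount of 0.1. The Thbs1 bait had 32 contacts at 0h, and 14 of its 26 contacts only at 12h were in the 0h list. Pla1a, a phospholipase gene, went from 2 to 9 contacts and from 0.45, 0.13 and 0.00 TPM to 6.37, 4.44 and 9.84 TPM. Igsf6, of the immunoglobulin superfamily, went from 2 to 6 contacts and from 0.21 to 0.41 TPM at 1h to 9.37 to 9.92 TPM at 12h. The Igsf6 bait kept neither of its 1h contacts. Pi16 (3 to 10 contacts) rose by 4.63 on the log2 scale, and Naaa, a lysosomal amidase gene (4 to 13 contacts), went from 0.17 to 0.43 TPM at 1h to 6.52 to 8.02 TPM at 12h. Pstpip2, coding for an actin-associated adaptor of macrophages, was listed at 0 TPM in the 3 libraries of 1h and had 1.72, 2.38 and 3.19 TPM at 12h, and its bait went from 3 to 18 contacts, with none at 0h.

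Of the 66 baits with halved contacts and lower RNA, 57 passed the same filter. Mcm2, a subunit of the replicative helicase, had 6, 15, 5 and 4 contacts at 0h, 1h, 12h and 48h, and its RNA went from 30.4, 25.4 and 31.4 TPM to 1.79, 3.35 and 3.67 TPM, a log2 change of -3.32 ± 0.28 (SE, n = 3, limma adjusted p = 1.81e-05). Mcm5, of the same helicase, had 7, 25, 9 and 9 contacts and a log2 RNA change of -3.03 ± 0.24. For both the 1h list held more contacts than the 0h list. Pold1, the catalytic subunit of DNA polymerase delta, had 7 and 2 contacts on a bait shared with Spib, a B cell transcription factor gene, and both genes fell in RNA. Nasp, a histone chaperone gene, had 20 and 8 contacts and Tipin, coding for a replication fork protein, had 10 and 4, with log2 RNA changes of -2.75 each. Dpp4, a cell surface peptidase gene, had the largest fall, from 13.4, 12.0 and 6.23 TPM to 0.91, 0.46 and 0.52 TPM, while its contacts went from 6 to 1 and were back at 7 at 48h.

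Contacts and RNA also moved in opposite directions. Of the 48 baits where contacts at least doubled while RNA fell, 38 passed the filter, among them Lmnb1, a nuclear lamina gene (2 to 5 contacts, 30.8 to 41.0 TPM at 1h and 5.91 to 8.56 TPM at 12h), and Sgo1, a protector of sister chromatid cohesion (5 to 14 contacts, log2 RNA change -1.87). Ndufaf4, an assembly factor of the respiratory chain, went from 1 contact to 9 with a log2 RNA change of -1.83. The replication checkpoint gene Topbp1 (2 to 5), the decapping enzyme gene Dcp2 (3 to 7) and 2700038G22Rik (3 to 8) were the others with the largest changes. At 0h the baits of Lmnb1, Sgo1, Topbp1 and Dcp2 had 7, 18, 4 and 13 contacts, more than at 1h. For Lmnb1, Sgo1 and Dcp2 this was also more than at 12h. The baits of Ndufaf4 and 2700038G22Rik had 1 and 3 at 0h, as at 1h. Of the 35 baits where contacts at least halved while RNA rose, 30 passed. Among them were Pgd and G6pdx, which code for enzymes of the pentose phosphate pathway, a source of NADPH. Pgd went from 8 contacts to 1 and from 10.5, 10.3 and 12.0 TPM to 58.0, 60.2 and 82.4 TPM (log2 change 2.59 ± 0.20, SE, n = 3, limma adjusted p = 7.26e-06). G6pdx went from 13 contacts to 5 and from 12.2, 16.9 and 10.8 TPM to 51.1, 50.9 and 64.8 TPM. Oasl1 (14 to 4 contacts) and Oasl2 (6 to 2), interferon-induced genes that are neighbours and similar in sequence, rose by 3.95 and 2.87 on the log2 scale, and how reads were divided between them is uncertain. Susd3 and Sertad1 rose by 2.06 and 1.97.

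**Figure D5:**
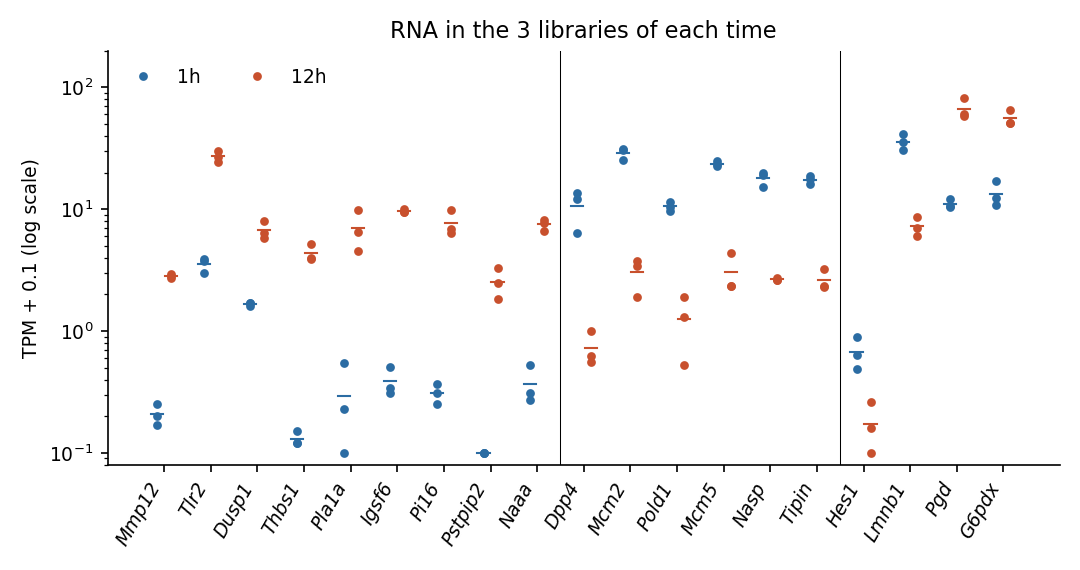
TPM plus 0.1 on a log axis in the 3 libraries at 1h and the 3 at 12h for the named genes, with points for libraries and a bar for the mean. In each gene shown the libraries of 1h and of 12h do not overlap, upward for Mmp12 to Naaa and for Pgd and G6pdx, downward for Dpp4 to Tipin and for Hes1 and Lmnb1. The genes other than Mmp12, Tlr2, Dusp1 and Hes1 were chosen by a rule that required no overlap.

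Lists of genes by function were read next. Counted per gene over all its baits, 647 of 8351 tested genes with at least 5 contacts in 1 list gained (7.75%) and 576 lost (6.9%). Of 33 tested myeloid genes 24 rose and 1 fell, yet of the 23 with enough contacts 2 gained and 1 lost. Those that gained were Mmp12 and Tlr2, a receptor for bacterial lipopeptides, which went from 3 contacts to 15 and from 3.83, 3.69 and 2.90 TPM to 24.52, 26.93 and 29.96 TPM (log2 change 2.94 ± 0.17, SE, n = 3, limma adjusted p = 1.16e-06). Tlr2 kept its 3 contacts of 1h. Cd68, a lysosomal glycoprotein gene of macrophages, had 14 contacts at 1h and 3 at 12h, and its RNA (log2 change 0.73, limma adjusted p = 0.0705) passed the test only with median-of-ratios scaling. The 1 listed gene that fell was Cebpa, whose TPM cannot be told apart here from those of the induced rat C/EBPα construct. The study separated rat from mouse reads and reported that the endogenous mouse gene was not expressed at any time. The Cebpa call was lost with median-of-ratios scaling, with no filter and without any one of 5 libraries, all but 12h replicate 3.

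Of 34 tested Pre-B genes 21 fell, or 15 with median-of-ratios scaling, and 2, Cd79b and Cd38, rose. Of 29 with enough contacts 2 gained and 2 lost, close to the shares over all genes. Irf4, a transcription factor gene that is also used in activated macrophages, had 13, 3 and 15 contacts at 0h, 1h and 12h. Erg, a gene of hematopoietic progenitors, had 6, 3 and 7. Neither gene had an RNA change that passed the test. Cd79b, a chain of the B cell receptor complex, had 9 contacts at 1h and 3 at 12h although its RNA rose from 6.26, 4.23 and 4.80 TPM to 11.3, 12.6 and 15.4 TPM. Spib had 7 and 2 contacts on the bait named above.

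Among 18 immediate early genes 8 rose and 1 fell in RNA, and of 17 with enough contacts 2 gained and 1 lost. Dusp1, a phosphatase gene that limits MAP kinase signalling, went from 5 contacts to 28 on the bait at chr17:26505162-26518791 and kept all 5. A second bait that it shares with Ergic1 had no listed contact at 0h or 1h and 8 at 12h. Its RNA went from 1.61, 1.52 and 1.59 TPM to 6.29, 5.66 and 7.85 TPM (log2 change 1.99 ± 0.21, SE, n = 3, limma adjusted p = 5.97e-05). Klf6, a Krüppel-like factor gene, went from 9 contacts to 25 and rose by 1.22 on the log2 scale. Junb, of the AP-1 family, had 13 contacts at 1h and 5 at 12h, and its RNA (0.62) did not pass the test.

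Replication and mitosis genes fell in RNA almost as a group, 26 of 31, with 21 of 31 under median-of-ratios scaling. Of 22 with enough contacts none gained and 2, Mcm2 and Mcm5, lost, and the median log2 contact change was -0.44 beside -0.05 over all genes. Of 22 genes of chromatin architecture and Polycomb 9 fell, or 6 with median-of-ratios scaling, and none rose, and of 16 with enough contacts 2 gained and 4 lost. Ctcf, the gene of the insulator protein, had 4, 12, 4 and 3 contacts at 0h, 1h, 12h and 48h, and kept 4. Its RNA went from 19.2, 19.5 and 18.1 TPM to 5.05, 6.07 and 8.30 TPM, a log2 change of -1.56 ± 0.18 (SE, n = 3, limma adjusted p = 0.000146). Pds5b, a cohesin regulator gene, had 7 and 2 contacts, the Polycomb cofactor gene Jarid2 6 and 2, and Lmna 7 and 2. The genes that gained were Lmnb1 and the cohesin subunit gene Stag2, from 2 to 5 each, after 7 and 5 contacts at 0h.

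The other lists held no gene past the contact fold among those with at least 5 contacts in 1 list. Of 9 tested CC chemokine genes and receptors 6 rose, and none of the 8 with enough contacts gained or lost. Of 13 growth arrest genes 5 rose and 2 fell, with none of 9 in either contact class. A last list held the genes whose contact maps the study showed, which it chose on these samples. Of its 6 tested members 1 rose and 2 fell, and none of the 5 with enough contacts was in either contact class. The study described these genes by change from the uninduced state, which the step read here does not test. Contacts at 0h, 1h, 12h and 48h numbered 15, 13, 21 and 59 for Btg1 and 1, 8, 9 and 16 for Ccl7. They were 47, 40, 22 and 17 for Clcf1, 37, 15, 14 and 27 for Pax5, and 3, 7, 6 and 8 for Maf1. Suz12 had 13, 4, 1 and 0, too few at 1h and 12h to be classed.

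Fragments that met promoters were also read for motifs on both strands. They were grouped as kept (39989 fragments without a bait that had at least 1 shared contact), gained (20841, with contacts only of the 12h list) and lost (16432, only of the 1h list), beside 108850 over the 4 lists. Kept fragments held a CTCF-like motif in 27.9% of cases, gained ones in 22.8%, lost ones in 23.0% and all in 24.2%. A further 4641 fragments had contacts of both kinds but none shared, and 26.9% of these held the motif. The C/EBP-like letters TTGCNNAA were found in 64.0% of kept, 64.0% of gained and 62.4% of lost fragments, and in 63.9% of all. For the PU.1-like letters GAGGAAGT the shares were 20.2%, 19.4%, 18.5% and 19.2%. A palindromic EBF1-like motif occurred in 8.54%, 7.13%, 7.29% and 7.51%. Kept fragments were the longest, with a median of 2635 bases against 2567 for gained and 2430 for lost ones, and had 44.9% GC against 44.0% and 44.3%, and the part of length and GC in these shares was not tested. Per 10 kb of sequence the C/EBP-like letters occurred 4.18 times in kept, 4.39 times in gained and 4.33 times in lost fragments, and the CTCF-like motif 1.10, 0.89 and 0.93 times, with 1.10 in the fragments that had both kinds.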

How the data were processed

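Promoter capture Hi-C libraries (HindIII) were aligned by the authors with HiCUP to mm10, 2 libraries per time were merged, and interactions were listed by CHiCAGO at a score of at least 5. The deposited 0h list holds that score and was used for presence only, while the deposited 1h, 12h and 48h lists hold whole-number counts that no header names, taken as read pairs (lowest value 2). The RNA table holds TPM, made by the authors from rRNA-depleted libraries with Trim Galore 0.6.2, HISAT2 2.1.0 and RSEM on mm10, 3 libraries per time. Columns that name no sample of the series numbered 0. Hi-C data were not analysed here.

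Lines listed in both directions (8082 at 1h and 9184 at 12h, with equal values) were joined. Values were divided by list totals (1h to 12h ratio 1.24) and contact numbers by list length. A bait past the fold had a log2 ratio beyond 1 with at least 5 contacts in 1 list, and each bait took the tested gene with the highest mean TPM. RNA was fitted with limma 3.58.1 in R 4.3.3 on log2(TPM + 0.1), 12 libraries in 1 model of 4 times, keeping genes whose TPM averaged 0.1 or more, contrast 12h minus 1h, variance trend and Benjamini-Hochberg adjustment. Fold changes on this scale understate those of low genes, and TPM keep no depth. On simulated data for this comparison (16415 genes) the fit recovered 67% of 100 genes changed by 2 and 83% of 100 changed by 3 on the log2 scale, with 5 false calls. The simulation gave the most abundant genes no noise and no change, and it capped the spread of the others. It did not model the shift between scalings seen in the RNA calls, so its count of false calls does not carry over to these data. Shares and ratios carry exact binomial 95% intervals. Sequences came from GRCm38 and RefSeq starts of GRCm38.p6. Of 91 baits taken at regular steps from the sorted list of all baits, the ends of all 91 lay at HindIII sites. Python 3.11.15 with scipy 1.17.1 was used.

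Named were the 10 largest increases and decreases in contacts per bait with a gene symbol, the 5 leading contacts of each kind, and the 6 genes with the largest RNA change in each combination of contact and RNA direction (mean TPM of at least 1, no overlap of libraries). Members, lists and rules were chosen with earlier results of these data known, and 1 gene of the lists is not reported here. Same-numbered libraries at 1h and 12h did not deviate together (r of 0.07, 0.02 and 0.10), so the numbers were not used as pairs.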

Additional observations from a re-analysis of the deposited data

How the results depend on the processing

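The contact results have 1 list per time, and the cause of the shifts below was not tested. The shares of 56.7% of 1h contacts at 12h and 59.4% of 12h contacts at 1h changed when each list kept only values of at least 10. They became 54.3% and 64.6%, with a contact under 10 in the other list counted as absent. With all values, they were 79.4% and 81.8% when a fragment within 10 kb counted, and 87.7% and 89.2% within 25 kb. Shared contacts 2 times higher and lower numbered 331 and 439 (median log2 ratio -0.026) when divided by the total of shared contacts, 362 and 353 (0.00) when centred, 10 and 7197 (-0.52) when divided by sequenced read pairs, and 95 and 304 (-0.071) with at least 10 in both lists. Gaining and losing baits numbered 431 and 388 with at least 10 contacts, 1941 and 1215 by summed value, and 2081 and 1758 at 1.5 times. The median RNA change of gaining baits minus that of all baits was 0.22, and 0.35 with at least 10 contacts. RNA calls of 902 higher and 1745 lower became 499 and 986 with a pseudocount of 1, 339 and 426 beyond a log2 change of 2, and 1145 and 2468 with no fold threshold. Median-of-ratios scaling left 923 lower, and leaving out 1 library gave 716 to 860 higher and 1281 to 2002 lower. The replicate block gave 930 higher and 1764 lower. Of 194 named genes 127 were called, 99 of them under every alternative and 28 not under some, 15 others were called under some, and none reversed. Without any one of several libraries Cebpa, Cdk1, Dntt, Tob1, Nfil3 and Ring1 lost their calls, as did Pds5b without 1h replicate 1 or 12h replicates 1 or 2. TPM keep no depth, so low RNA levels have no counting error.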

Other observations

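A few far regions held many of the contacts beyond 1 Mb, and they were picked after their values were seen. On chromosome 6 the 2-Mb blocks from 128 and from 130 Mb shared 145, 119, 79 and 76 contacts over 1 Mb, in the order 0h, 1h, 12h and 48h. Blocks from 14 and from 18 Mb of chromosome 9 shared 45, 51, 21 and 7. Between chromosomes, the block from 40 Mb of chromosome 17 shared 84, 91, 80 and 54 contacts with that from 40 Mb of chromosome 7. The block from 68 Mb of chromosome 11 shared 84, 71, 52 and 61 with that from 92 Mb of chromosome 8. The 8 leading pairs of blocks held 39.2% of the contacts between chromosomes at 1h and 38.1% at 12h.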
